A study of Mus musculus with 6 samples.

Results

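Mir192, Mir194-1, Mir194-2 and Mir215 are the 4 hairpins of a pair of paralogous miRNA loci of the mouse, chosen by their row names among the 1155 miRNA rows of the count table. The 4 rows were followed through 6 small RNA libraries from cultured mouse embryonic fibroblasts, which are connective tissue cells grown from embryos. There were 3 Fbxw7 KO libraries and 3 WT libraries. FBXW7, the protein lost in the KO cells, is an F-box protein that hands substrates such as cyclin E and Myc to a ubiquitin ligase, which leads to their breakdown. The labels name genotype and cell type, and nothing in them says how the gene was knocked out, how old the embryos were, or whether each library had its own embryo or culture. The p-values therefore cover only the variation among these libraries, and that variation may be technical.

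miRNAs are cut from hairpin transcripts, and either arm of a hairpin can give a mature strand of about the length of those printed here. The mature strand pairs with target mRNAs mainly through its seed, which spans bases 2 to 8. miR-192, miR-194 and miR-215 are best known as abundant miRNAs of gut, liver and kidney epithelium, where HNF1 factors drive them. In human cells p53 activates their primary transcripts, and miR-192 and miR-215 add to p53-dependent cell cycle arrest.

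At both loci a Mir194 hairpin comes first on the plus strand and a hairpin of the miR-192 and miR-215 kind follows. On chromosome 19 (mm10), Mir194-2 spans 6264643 to 6264728 and Mir192 spans 6264844 to 6264932, with 115 bases between them. No other gene of GENCODE M21 overlaps either hairpin, so both are intergenic in that annotation. On chromosome 1, Mir194-1 spans 185313319 to 185313385 and Mir215 spans 185313581 to 185313692, with 195 bases between them. Both chromosome 1 hairpins lie within 2010103J01Rik, a noncoding transcript on the same strand, Mir194-1 in its intron and Mir215 in an exon. Both also lie opposite an intron of Iars2, the mitochondrial isoleucyl-tRNA synthetase gene, on the other strand. Strand was ignored in counting, so reads of that intron and reads of these hairpins cannot be told apart. All 4 rows had the same coordinates and strand in the count table, in GENCODE M21 and in the RefSeq table (GRCm38.p6).

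**Figure D1:**
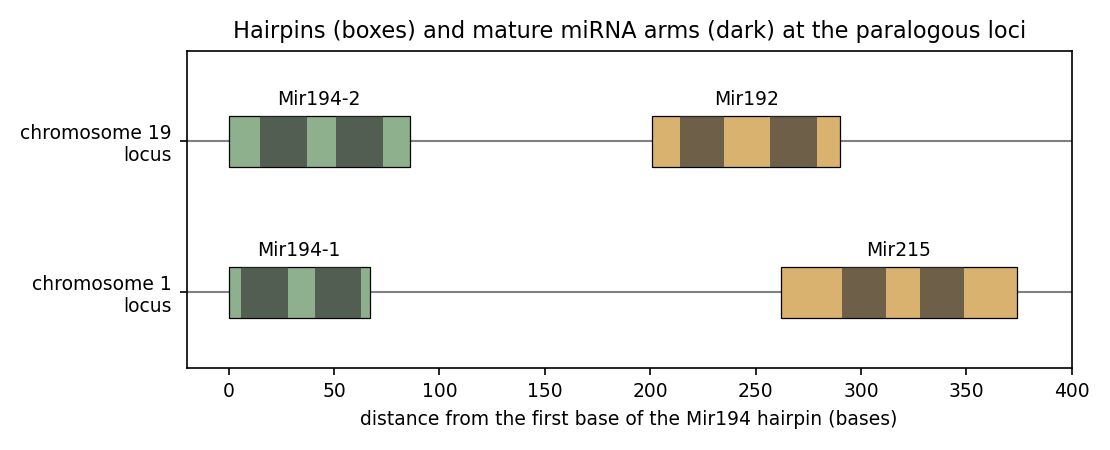
Map of the chromosome 19 locus (upper line) and the chromosome 1 locus (lower line), with distance in bases from the first base of the Mir194 hairpin on the x axis. Boxes are hairpins drawn to scale and dark segments are the mature arms; the gap between hairpins is 115 bases on chromosome 19 and 195 on chromosome 1.

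The mature sequences, from RefSeq on GRCm38.p6, show what the loci share and where a read can tell them apart. The seed is in capitals. The main strands of Mir192 and Mir215 come from the 5′ arm and have the same seed.
mmu-miR-192-5p: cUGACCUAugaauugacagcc
mmu-miR-215-5p: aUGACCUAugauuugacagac
They agree at 18 of 21 positions, counted from 1 at the 5′ end, and differ at C1A, A12U and C20A, with the base of miR-192-5p first. None of the other mature miRNAs in the RefSeq table has this seed. The 5′ strand of the Mir194 hairpins is the same from both loci over all 22 bases, and no other mature miRNA in the table has its seed.
mmu-miR-194-5p: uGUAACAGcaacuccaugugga
The 3′ strands of the Mir194 hairpins differ between the loci.
mmu-miR-194-2-3p: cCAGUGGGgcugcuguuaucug
mmu-miR-194-1-3p: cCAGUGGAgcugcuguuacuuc
With the base of miR-194-2-3p first, they differ at G8A, U19C, C20U and G22C. The first of these positions is the last base of the seed, so the 3′ strands of the loci do not have the same seed.

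The identical 5′ strand bears on what the counts mean, as the Mir194 hairpins themselves show. The run that they share is in capitals.
Mir194-2: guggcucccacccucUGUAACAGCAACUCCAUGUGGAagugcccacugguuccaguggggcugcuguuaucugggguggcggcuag
Mir194-1: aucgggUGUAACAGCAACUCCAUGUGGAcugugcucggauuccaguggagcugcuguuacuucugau
The shared run is 22 bases long and is the mature miR-194-5p and nothing more. A read of exactly this strand matches both hairpins equally, and per the file header the counting did not switch on reads with several alignments. The Mir194-1 and Mir194-2 rows can therefore hold only reads that reach past the shared run or come from the 3′ arm, unless the aligner reported 1 place for such a read. The number of reads lost in this way is unknown, and both rows are uncertain as measures of miR-194. The longest run that Mir192 and Mir215 share is 10 bases, so a longer read without mismatches fits only 1 of them on the same strand. Whether reads with mismatches were divided correctly between these rows was not tested. Both arms of each hairpin fall into 1 count.

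The 6 libraries held 2932439 to 5019700 counts, and 283 of the 1155 rows had enough counts to be tested. In edgeR's quasi-likelihood test with Benjamini-Hochberg adjustment over the 283 rows, 43 rows were higher and 29 lower in Fbxw7 KO at an adjusted p under 0.05. These are 15.2% and 10.2% of the tested rows, 25.4% together. Fbxw7 KO and WT libraries did not overlap in 43.8% of tested rows. Fbxw7 KO replicate 3 stood apart from the other KO libraries on the second principal component (score −6.46, against 2.90 and 3.55), which held 17.4% of the variance. The fibroblast and mesenchymal marker list held 54.8% to 57.8% of counts in Fbxw7 KO libraries and 53.3% to 54.6% in WT libraries. Of its 12 miRNAs, 10 had a row and 8 were tested. Most of its counts were those of Mir21a (2717087 in Fbxw7 KO libraries, 3209598 in WT) and Mir143 (2225243 and 2928437). Mir22 had 0 counts in every library, and Mir199a-1 at most 10 in a library. In Fbxw7 KO, 2 tested rows passed as higher, Mir199b (log2 fold change 0.65) and Mir31 (1.77). Mir10a (−0.89) passed as lower, and 5 had no call.

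Loss of Fbxw7 went with more Mir194-2 but with no detectable difference in Mir192, the hairpin next to it. Mir194-2 rose 1.5-fold, and the other 2 tested members did not pass the test. The Mir194-2 call ended in 5 of 15 alternative settings or sets of libraries. As said above, this row is uncertain as a measure of miR-194. Mir192 had the same mean level in both genotypes to within the spread of the libraries. Mir215 and Mir194-1, on chromosome 1, were near the lower limit of what these libraries can measure. That 1 of 3 tested members passed is not far from the 25.4% of all tested rows.

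Mir192, whose 5′ strand carries the shared miR-192 and miR-215 seed, was the most abundant member. Its level in CPM, which is counts scaled to a common library total with TMM factors, was 361, 355 and 360.2 in Fbxw7 KO replicates 1 to 3. It was 343, 386 and 352 CPM in WT replicates 1 to 3. The KO libraries lay close together and inside the range of the WT libraries. The means were 359 ± 3.03 CPM in Fbxw7 KO and 360.4 ± 22.7 CPM in WT (SD, n = 3 each). The edgeR estimate was a log2 fold change of −0.01 with a 95% interval of −0.29 to 0.27 (SE 0.124, adjusted p = 0.978). This value changed sign under other scalings, since it is close to 0, and it did not pass the test under any of 15 alternatives. The row held 1046 to 1406 counts in Fbxw7 KO libraries and 1354 to 1710 in WT libraries.

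Mir194-2, which yields miR-194-5p and a 3′ strand of its own, was higher in every Fbxw7 KO library than in any WT library. Its level was 126, 118 and 128 CPM in Fbxw7 KO replicates 1 to 3, and 98.7, 75.8 and 73.0 CPM in WT replicates 1 to 3. Every KO library lay above every WT library in 67 of the 283 tested rows (23.7%), this row among them. WT replicate 1 was nearest to the KO libraries. The means were 124 ± 5.23 CPM in Fbxw7 KO and 82.5 ± 14.1 CPM in WT (SD, n = 3 each). The log2 fold change was 0.59 (SE 0.168, 95% interval 0.20 to 0.97, edgeR adjusted p = 0.0347). Counted from the largest rise down to the largest fall, it was the 48th of the 283 log2 fold changes, and by p the row was the 57th. The call ended when WT replicate 2 (adjusted p = 0.145) or WT replicate 3 (adjusted p = 0.0908) was left out. It also ended when KO replicate 1 (adjusted p = 0.104) or KO replicate 2 (adjusted p = 0.103) was left out, and with TMM factors taken outside the Dlk1-Dio3 cluster (log2 fold change 0.46, adjusted p = 0.0666). It held without Fbxw7 KO replicate 3, the library that stood apart (0.57, adjusted p = 0.0466), and without WT replicate 1 (0.74, adjusted p = 0.0253).

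**Figure D2:**
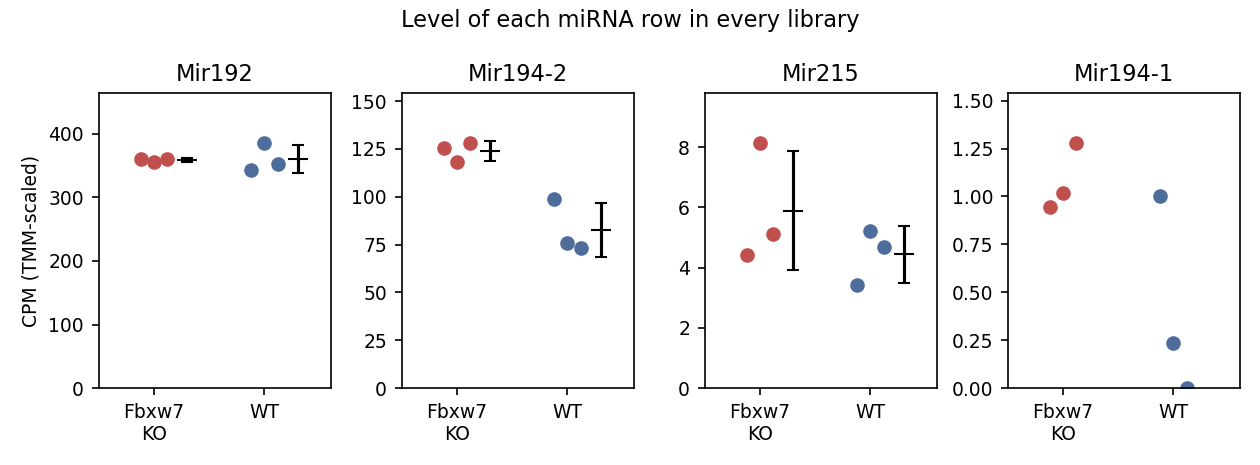
Level of each row in CPM (y axis, from 0, with its own scale in each panel) in the 3 Fbxw7 KO libraries and the 3 WT libraries. Points are libraries and bars are mean ± SD, left out for Mir194-1, which is at 0 in 1 library; Mir194-2 is the row in which the KO libraries (118 to 128 CPM) all lie above the WT libraries (73.0 to 98.7 CPM).

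Mir215, the chromosome 1 counterpart of Mir192, was scarce. It had 14, 24 and 20 counts in Fbxw7 KO replicates 1 to 3, which is 4.42, 8.15 and 5.12 CPM. It had 17, 22 and 18 counts in WT replicates 1 to 3, which is 3.41, 5.23 and 4.68 CPM. The genotypes overlapped, and Fbxw7 KO replicate 2 was the highest library. The log2 fold change was 0.40 (SE 0.322, edgeR adjusted p = 0.391), with a 95% interval of −0.32 to 1.13. A change of the size seen for Mir194-2 lies inside this interval and was not detectable at this depth. Without Fbxw7 KO replicate 2 the log2 fold change was 0.09.

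Mir194-1, the chromosome 1 counterpart of Mir194-2, was hardly counted. It had 3, 3 and 5 counts in Fbxw7 KO replicates 1 to 3, and 5, 1 and 0 in WT replicates 1 to 3. The 0 of 3707576 counts in WT replicate 3 allows a level of up to 0.780 CPM. The genotypes overlapped, and the row was left out by the filter on low counts. The 11 counts in Fbxw7 KO and 6 in WT correspond to a 2.48 times larger share of the library, with an exact 95% interval of 0.841 to 8.17 that covers counting error only. Intervals of this kind treat reads as independent molecules, which PCR copies are not.

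The loci differed far more from each other than the genotypes did. Levels of different rows are given here in FPKM, the authors' deposited values per hairpin length. Mir192 stood at 4065 ± 97.9 FPKM in Fbxw7 KO and 4012 ± 126 FPKM in WT, the 98th highest mean of the 1155 rows. Mir194-2 stood at 1455 ± 82.6 FPKM in Fbxw7 KO and 955 ± 188 FPKM in WT, and ranked 134th. Mir215 stood at 52.9 ± 16.9 FPKM in Fbxw7 KO and 39.2 ± 7.16 FPKM in WT, and ranked 258th. Mir194-1 had 14.4, 15.1 and 19.4 FPKM in Fbxw7 KO libraries and 15.3, 3.40 and 0 FPKM in WT libraries. The ranges of neighbours in this order, over all 6 libraries, did not overlap. The places of the Mir194 rows rest on the reads that could be assigned to 1 hairpin.

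Summed over its hairpins, the chromosome 19 locus had 5618, 5313 and 5628 FPKM in Fbxw7 KO replicates 1 to 3, and 5109, 5003 and 4789 FPKM in WT replicates 1 to 3. The chromosome 1 locus had 54.6, 87.1 and 65.9 FPKM in Fbxw7 KO replicates 1 to 3, and 46.4, 48.2 and 41.6 FPKM in WT replicates 1 to 3. The ratio of the loci was 61.0 to 103 in Fbxw7 KO libraries and 104 to 115 in WT libraries. The lowest ratio was that of Fbxw7 KO replicate 2, where the chromosome 1 locus had 27 counts in all. Of the counts of Mir192 and Mir215 together, which carry the same seed in their 5′ strand, Mir192 held 97.8% to 98.8% in Fbxw7 KO libraries and 98.7% to 99.02% in WT libraries. All 4 rows together made up 0.0485% to 0.0515% of counts in Fbxw7 KO libraries and 0.0430% to 0.0446% in WT libraries.

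**Figure D3:**
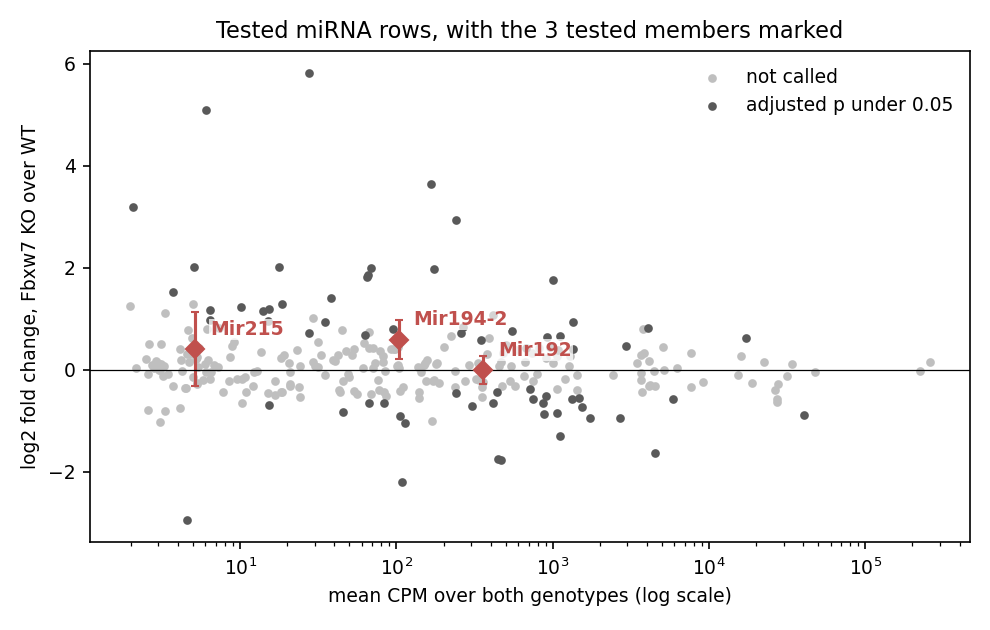
Log2 fold change of Fbxw7 KO over WT (y axis) against mean CPM on a log scale (x axis) for the 283 tested rows, dark where the adjusted p was under 0.05. Diamonds with 95% intervals are Mir215, Mir194-2 and Mir192; only the interval of Mir194-2 (0.20 to 0.97) lies above 0.

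Mir194-2 and Mir192 lie 201 bases apart from start to start, and their ratio within a library needs no scaling. Mir194-2 held 25.8% (95% interval 23.6% to 28.1%), 24.96% (22.7% to 27.3%) and 26.3% (24.3% to 28.3%) of the counts of the pair in Fbxw7 KO replicates 1 to 3. It held 22.3% (20.6% to 24.1%), 16.4% (14.8% to 18.1%) and 17.2% (15.4% to 19.1%) in WT replicates 1 to 3. The intervals are exact Clopper-Pearson intervals and cover counting error only. The KO libraries were alike and all above the WT libraries, although the interval of WT replicate 1 overlapped those of Fbxw7 KO replicates 1 and 2. The mean share was 25.7% ± 0.663 in Fbxw7 KO and 18.6% ± 3.22 in WT (SD, n = 3 each).

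The log2 ratio of Mir194-2 to Mir192 was −1.53 ± 0.050 in Fbxw7 KO and −2.14 ± 0.297 in WT, a difference of 0.60. The exact 2-sided permutation test gave p = 0.1. This test cannot give a smaller value with 3 libraries a genotype, so it cannot reach 0.05 here. Left-out libraries gave differences of 0.50 to 0.77. Among all 45 pairs of adjacent tested hairpins on 1 strand that start within 1000 bases of each other, the KO and WT ratios did not overlap in 19 (42.2%). The median size of the difference over these pairs was 0.31, with quartiles of 0.16 and 0.47. This comparison was chosen after seeing the data. Asking for a mean of at least 50 CPM in both hairpins left 32 pairs. It took out Mir540 with Mir665, Mir201 with Mir547 and Mir188 with Mir532, which had larger differences than Mir194-2 with Mir192. The Mir194-2 and Mir192 pair had the 5th largest difference of all 45 pairs, and the 2nd largest of the 32. The part of the reads that match both Mir194 hairpins in this difference was not tested.

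**Figure D4:**
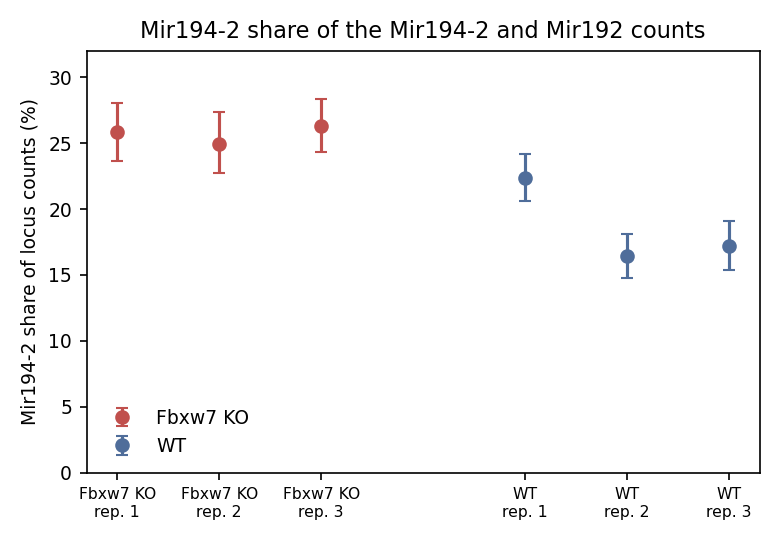
Share of Mir194-2 in the counts of Mir194-2 and Mir192 together, in percent (y axis, from 0), for the 3 Fbxw7 KO libraries on the left and the 3 WT libraries on the right. Bars are exact 95% binomial intervals; KO libraries are at 24.96% to 26.3% and WT libraries at 16.4% to 22.3%.

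With the rows of Mir194-1 and Mir194-2 added into 1, a setting chosen after seeing the data, the edgeR log2 fold change was also 0.59 (adjusted p = 0.0348). The sum is nearly all Mir194-2, and like the rows it lacks the reads that were left out. It does not measure total miR-194.

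The remaining rows within 100000 bases of the hairpins were Mir664 and Mir6989. Mir664, upstream of the chromosome 1 locus, had 61.2, 52.3 and 57.4 CPM in Fbxw7 KO replicates 1 to 3 and 43.9, 41.4 and 54.9 CPM in WT replicates 1 to 3. The groups overlapped, and the row did not pass (edgeR log2 fold change 0.29, SE 0.179, adjusted p = 0.265). Mir6989, downstream of Mir192, had 4 counts in all Fbxw7 KO libraries and 15 in all WT libraries, too few to be tested.

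Since p53 activates these primary transcripts in human cells, the members were read within a list of miRNAs that p53 is known to activate. The list includes the 4 members themselves. Of its 12 miRNAs, 11 had a row and 8 were tested, among them Mir192, Mir194-2 and Mir215. In Fbxw7 KO 4 of the 8 rose, 0 fell and 4 did not pass, where 15.2% of all tested rows rose. The median log2 fold change of the 8, tested members included, was 0.45, against 0.05 over all tested rows. The 4 were Mir194-2, Mir34a, Mir34b and Mir34c, and Mir34b and Mir34c come from 1 transcript. Outside the members, only the Mir34 rows of the list rose.

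Mir34a, which represses cell cycle genes downstream of p53, had 583 ± 21.6 CPM in Fbxw7 KO and 415 ± 65.6 CPM in WT (log2 fold change 0.49, SE 0.143, edgeR adjusted p = 0.0365). Mir34b had a log2 fold change of 0.94 and Mir34c one of 0.82. Mir107 was at 0.14 (adjusted p = 0.687), and Mir145a, a smooth muscle and mesenchymal miRNA, was at 0.30 (adjusted p = 0.178). Mir192 and Mir215 were the other tested rows without a call. Mir200c and Mir141 had at most 6 counts in a library. The count of rises was 0 without WT replicate 2, and 2 when either of the other WT libraries, KO replicate 1 or KO replicate 2 was left out. It was also 2 with TMM factors taken outside the Dlk1-Dio3 cluster. p53 itself was not analysed here.

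Markers of gut, liver and epithelium, the tissues these miRNAs are best known from, were scarce. Of the 10 rows of that list, 2 were tested and 0 passed. Together they held 0.00242% to 0.00796% of counts in Fbxw7 KO libraries and 0.00381% to 0.00445% in WT libraries. Mir802 was at 0 in every library and Mir429 at 0 in the Fbxw7 KO libraries. Mir200a, Mir200b, Mir200c, Mir141, Mir375 and Mir205 had at most 8 counts in a library. Mir122, which marks hepatocytes, had 15.5 ± 8.29 CPM in Fbxw7 KO and 17.9 ± 1.31 CPM in WT, a higher level than that of Mir215. Its log2 fold change was −0.23 with a 95% interval of −1.07 to 0.62 (edgeR adjusted p = 0.703). The epithelial miRNA Mir203 had 13.3 to 59.3 CPM in Fbxw7 KO libraries and 18.7 to 19.97 CPM in WT libraries. Its means were 39.4 ± 23.6 CPM in Fbxw7 KO and 19.3 ± 0.655 CPM in WT (SD, n = 3 each), a log2 fold change of 1.02 with a 95% interval of 0.02 to 2.02 (SE 0.442, edgeR adjusted p = 0.133). The groups overlapped, and the estimate was larger than that of Mir194-2 but did not pass the test. The part of such cells in the Mir194-2 result was not tested.

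Among the 216 other tested rows with a mean of at least 10 CPM, the pattern most like that of Mir194-2 over the 6 libraries was that of Mir34a. Likeness was measured as the root mean square difference of log2 CPM, each row centred on its mean, and was 0.078 for Mir34a. Mir339 (0.079), Mir320 (0.099), Mir29a (0.115) and Mir450b (0.138) followed. Nearest to Mir192 were Mir143 (0.033), Mir149 (0.052), Mir125a (0.070), Mir99b (0.073) and Mir532 (0.073). Nearest to Mir215 were Mir331 (0.260), Mir30c-1 (0.268), Mir674 (0.280), Mir186 (0.288) and Mir148a (0.288), farther off than for the other members. All these distances describe 6 libraries and carry no test.

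**Figure D5:**
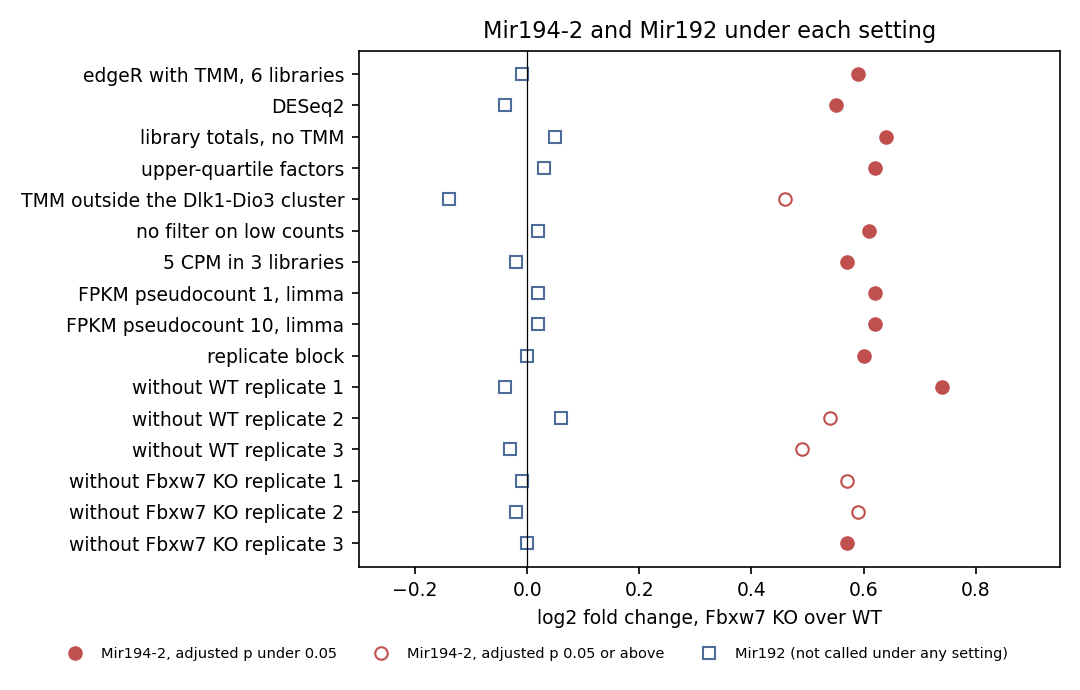
Log2 fold change of Fbxw7 KO over WT (x axis) for Mir194-2 (circles, filled where the adjusted p was under 0.05) and Mir192 (squares) under each setting (y axis). Mir194-2 stays between 0.46 and 0.74 and Mir192 between −0.14 and 0.06.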

How the data were processed

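The authors' deposited table of read counts per miRNA gene name came from featureCounts 1.6.4, run without strand and with 1 row per gene name, per the file headers. Counting of reads with several alignments, or over more than 1 row, was not switched on. The submitters' processing notes name mm10 as the build, and list deepTools, Cufflinks 2.2.1, SAMtools 1.5 and TopHat2 2.1.1. How adapters were trimmed is not given in the sources used here. The authors' deposited FPKM values equal counts over hairpin length and TMM-scaled totals in all 1155 rows (relative difference under 1e-06).

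Counts were tested in edgeR 4.0.16 (R 4.3.3) with TMM factors, filterByExpr (minimum count 10, minimum total 15), robust glmQLFit and glmQLFTest, 2-sided, genotype as the only term, and Benjamini-Hochberg adjustment over 283 rows. The SE came from the F statistic. Alternatives used DESeq2 1.42.0, limma 3.58.1 on log2(FPKM + 1) or log2(FPKM + 10), other scalings and filters, a replicate block and left-out libraries. On counts simulated from this comparison, 282 rows were tested. There edgeR recovered 32.1% of rows changed 1.5-fold, 74.4% changed 2-fold and 100% changed 4-fold, with 1 false call among 64. Every simulated row was given 1 common spread, so these rates need not hold for rows with another spread. The log2 ratio of neighbours used counts + 0.5. The members, lists and naming rule were chosen with earlier results of these data known, and the comparison of adjacent hairpins and the summed Mir194 rows were chosen after seeing the data. The rule named the members, rows within 100000 bases, the p53 and epithelial lists, and the 5 nearest patterns per tested member. Labels number replicates 1 to 3 in each genotype, and same-numbered libraries did not all deviate together, so they were not treated as pairs.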

Additional observations from a re-analysis of the deposited data

How the results depend on the processing

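Of 72 changed miRNAs, 43 higher and 29 lower, counts over left-out libraries ran between 34 and 78 (42 without WT replicate 1, 35 without WT replicate 2, 34 without Fbxw7 KO replicate 2). With TMM factors taken outside the Dlk1-Dio3 cluster, 30 rows rose and 34 fell. That scaling moved the median over all rows by −0.12 on the log2 scale. Relative to that median, Mir194-2 stood at 0.54 with either scaling. Its log2 fold change was 0.46 there (adjusted p = 0.0666) and 0.49 to 0.74 over left-out libraries (adjusted p = 0.0253 to 0.145), 4 of which ended the call. In 10 of 15 alternatives the call held, not counting the summed Mir194 rows, which nearly repeat the Mir194-2 row. Mir192 was at 0.05 with library totals, 0.03 with upper-quartile factors, 0.02 with no filter on low counts and 0.02 in FPKM with either pseudocount. It was at −0.14 with TMM factors taken outside the Dlk1-Dio3 cluster, and at −0.04 to 0.06 over left-out libraries. In none of 15 alternatives did Mir192 pass (adjusted p = 0.441 to 0.992). Mir215 did not pass in any of 14 (log2 fold change 0.09 to 0.56); with a filter of 5 CPM in 3 libraries it was not tested. The ratio of Mir194-2 to Mir192 differed by 0.50 to 0.77 over left-out libraries. Rises in the p53 list numbered 4, 2 with TMM factors taken outside the Dlk1-Dio3 cluster, and 0 to 4 over left-out libraries. With the replicate block, 76 miRNAs changed, Mir194-2 was at 0.60 (adjusted p = 0.0389) and no member's call changed; the correlations of the deviations of same-numbered libraries were −0.056, 0.136 and 0.157. The cause of these changes was not tested. Depth limits Mir215 and Mir194-1, which had at most 24 and 5 counts in a library.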

Other observations

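Other neighbouring hairpins showed differences of a size like that of Mir194-2 and Mir192. In the Clcn5 region of the X chromosome, 2 log2 ratios were lower in Fbxw7 KO. The difference, Fbxw7 KO minus WT, was −0.65 for Mir501 to Mir362 and −0.61 for Mir188 to Mir532. The log2 ratio of Mir23a to Mir27a was higher in Fbxw7 KO by 0.57, and that of Mir382 to Mir668, in the Dlk1-Dio3 region, by 0.60. In each of these pairs the KO and WT libraries did not overlap, as in 42.2% of all 45 pairs. These pairs were picked after their values were seen, and the differences carry no test.

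With no filter on low counts, Mir194-1 had a fitted log2 fold change of 1.24 (unadjusted p = 0.144, edgeR adjusted p = 0.458 over 671 rows), which depends on the prior count of the fit.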
